A study of Mus musculus with 10 samples.

Results

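The genes described here are 8 that mark lymphoid follicles of the gut wall and the M cells above them: *Cr2*, *Cxcr5*, *Cxcl13*, *Ccr7*, *Ltb*, *Gp2*, *Spib* and *Ccl20*. They were taken by symbol, and had been chosen by what is known of follicles together with their levels in these libraries and in KO against WT, so that both are given here as a description. All 8 were found among the 35275 Ensembl gene IDs of the count data. They were measured by RNA-seq in the proximal small intestine of 5 KO mice, in which *Zip14* (*Slc39a14*, a zinc transporter) is deleted, and of 5 WT mice. Each mouse gave 1 library. In the study the KO mice lack *Zip14* in the whole body (WB-KO), and WT mice of their strain served as controls, both bred from heterozygous pairs. The series title instead speaks of an enterocyte-specific deletion, the labels say KO alone, and the counts do not settle it. No treatment is named, the labels put all mice at 8 to 10 weeks of age, and sex is not given per mouse. Libraries are named by group and replicate number, WT1 to WT5 and KO1 to KO5.

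The libraries held between 16729787 and 20819678 counts in WT mice and between 17118742 and 19414828 in KO mice. The targeted gene *Slc39a14* was lower in all 5 KO libraries than in any WT library, at 78.3 to 160.0 against 190.6 to 356.4 CPM (counts scaled to library size, with TMM normalization), and the highest KO level was that of KO1. Lists of genes of intestinal regions and of muscle differed in their summed level between the groups. Summed over 6 ileal genes the level was 226.3 to 264.9 CPM in WT and 3347 to 10607 CPM in KO libraries, and summed over 8 genes of the proximal small intestine it was 4786 to 11955 CPM in WT and 91.5 to 638.2 CPM in KO libraries. The proximal sum was mostly *Apoa4* and *Fabp1*. By the edgeR test described below, 5 of the 7 tested proximal genes were lower in KO and none higher, where 13.9% of all tested genes were lower. *Slc40a1*, at 11.4 to 38.7 CPM in WT and 16.5 to 63.7 CPM in KO libraries, did not follow the sum. *Cybrd1* overlapped between the groups, at 7.91 to 11.4 CPM in WT and 3.04 to 10.6 CPM in KO libraries. Summed over 10 smooth muscle genes it was 1219 to 2179 CPM in WT and 3265 to 9957 CPM in KO libraries. The position of the sample along the intestine, the amount of muscle in it and the genotype cannot be told apart in any comparison of KO with WT below.

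Lymphoid follicles are clusters of B cells held together by follicular dendritic cells and other stromal cells. Lymphotoxin from lymphocytes acts on the lymphotoxin beta receptor of the stroma, which through non-canonical NF-kB (the RelB:p52 dimer) makes the chemokine CXCL13, and CXCL13 draws in B cells that carry its receptor CXCR5. In the small intestine follicles occur singly or gathered in Peyer's patches, under an epithelium that makes CCL20 and holds M cells, which take up particles from the lumen. In a whole section of intestine, fewer cells of a type and less RNA per cell cannot be told apart.

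The promoters of 6 of the 8 genes were read from RefSeq sequences of GRCm38.p6, from 250 bases before to 50 bases after the start of the gene, while *Cxcr5* and *Ccr7* had no entry. They are shown because 4 of the 6 genes (*Cr2*, *Cxcl13*, *Ltb* and *Spib*) were high in the same libraries, and NF-kB is the pathway named above. The general NF-kB consensus (GGG, any 5 bases, then CC) was searched on both strands. It was in 16686 of 32851 promoters of that length (50.8%), so that a match is common. Matches on the 2 strands can overlap, and below is 1 stretch of 30 bases around a match in each promoter that had any, with the match in capitals, 5′ to 3′ on the strand of the gene.
*Cxcl13*, chr5:95956866-95956895, plus strand: gagggtcagtGGGAGGGCCCtggctggtat
*Ltb*, match on the opposite strand, chr17:35194410-35194439, plus strand: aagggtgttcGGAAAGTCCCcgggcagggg
*Ccl20*, chr1:83116675-83116704, plus strand: taatcaatggGGGAAAACCCcgggtgagaa
*Spib*, chr7:44532232-44532261, minus strand: ccccaatggtGGGGATCCCCaaatccagat
*Cr2*, chr1:195176822-195176851, minus strand: agacttcccgGGGACCGCCCctctctgcct
The *Gp2* promoter held no match in this window. A match was present in *Cxcl13*, *Ltb*, *Spib* and *Cr2*, and also in *Ccl20*. The levels of *Ccl20*, which had a match, and of *Gp2*, which had none, did not follow those of the other genes.

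The level of *Cr2* divided the 10 libraries most widely. *Cr2* (ENSMUSG00000026616, chr1:195136811-195176716 in GRCm38, minus strand) encodes complement receptor 2 (CD21) of mature B cells and follicular dendritic cells. In WT libraries its level was 0.104, 0.255, 0.233, 0.110 and 13.7 CPM in WT1 to WT5. In KO libraries it was 0.225, 14.6, 19.7, 22.5 and 0.157 CPM in KO1 to KO5. The gene was thus high in WT5, KO2, KO3 and KO4, with 244, 279, 366 and 473 counts, and close to the limit of detection in the other 6, with 2 to 4 counts each. Between WT5, the lowest of the 4, and WT2, the highest of the 6, the level differed 53.6-fold (95% exact interval 20.7 to 198.3, counting error only). The members were chosen with these levels known, and the division is a description of the 10 libraries.

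The chemokine CXCL13 and its receptor were highest in the same 4 libraries. *Cxcl13* (ENSMUSG00000023078, chr5:95956951-95961068, plus strand) was at 1.35, 1.08, 1.28, 1.76 and 8.06 CPM in WT1 to WT5. It was at 2.36, 19.7, 18.4, 23.1 and 4.45 CPM in KO1 to KO5. Each of KO2, KO3 and KO4 was above WT5, which was above all other WT libraries, and KO1 and KO5 lay between WT5 and the other WT libraries. *Cxcr5* (ENSMUSG00000047880, chr9:44511787-44561877, minus strand) was at 0.881, 0.765, 1.46, 1.21 and 3.97 CPM in WT1 to WT5. It was at 1.01, 9.30, 10.7, 13.0 and 1.83 CPM in KO1 to KO5. Its gene overlaps *Bcl9l* on the other strand, and since the handling of strand is not given in the sources used here, reads of both genes cannot be told apart.

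*Ltb*, the membrane anchor of lymphotoxin, and *Ccr7*, the receptor that guides lymphocytes and dendritic cells to T cell zones, had the same 4 libraries on top. *Ltb* (ENSMUSG00000024399, chr17:35194439-35196320, plus strand) was at 3.73, 4.27, 4.25, 4.45 and 10.8 CPM in WT1 to WT5. It was at 5.18, 20.1, 21.3, 26.7 and 6.39 CPM in KO1 to KO5. All 5 KO libraries were above WT1 to WT4, and 3 of them were above WT5. The *Ltb* gene overlaps the microRNA gene *Mir6973a* on the same strand, and how reads in the overlap were counted is not given. *Ccr7* (ENSMUSG00000037944, chr11:99144196-99155077, minus strand) was at 0.674, 0.765, 0.524, 0.439 and 3.92 CPM in WT1 to WT5. It was at 1.24, 4.76, 4.79, 4.09 and 0.838 CPM in KO1 to KO5. Here the counting intervals of WT5 (3.05 to 4.95 CPM) and KO4 (3.27 to 5.05 CPM) overlapped, so that the 4 high libraries lay closer together than for *Cxcl13* or *Ltb*.

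The 3 genes of the follicle epithelium did not behave alike. *Spib* (ENSMUSG00000008193, chr7:44525993-44532071, minus strand) encodes a transcription factor that M cells need and that B cells and plasmacytoid dendritic cells also make. It was at 11.8, 7.84, 11.3, 9.72 and 22.6 CPM in WT1 to WT5, and at 3.94, 54.5, 67.8, 45.5 and 7.13 CPM in KO1 to KO5. Its 4 highest libraries were again KO3, KO2, KO4 and WT5, but KO1 and KO5 were below all 5 WT libraries, which held for no other member with these 4 libraries on top.

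*Gp2* (ENSMUSG00000030954, chr7:119442537-119459285, minus strand) encodes glycoprotein 2, the uptake receptor of mature M cells, which pancreatic acinar cells also make. Its level was 1.24, 1.15, 2.39, 0.878 and 1.51 CPM in WT1 to WT5, and 0.675, 2.09, 0.916, 4.95 and 0.838 CPM in KO1 to KO5. KO4 stood above the rest, while KO3, with the highest *Spib*, was among the 4 lowest for *Gp2*. A list of 10 pancreatic acinar genes summed to 57.6 to 141.6 CPM in WT and 66.7 to 303.7 CPM in KO libraries, highest in KO3. That sum was mostly *Clps* (291.0 CPM in KO3), while *Ctrb1* and *Cpa1* were highest in KO2 (10.1 and 3.45 CPM) and low in KO3 (0.485 and 0.269 CPM). *Amy2a5* had 0 counts in all 10 libraries, and the part of these genes in the level of *Gp2* was not tested.

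*Ccl20* (ENSMUSG00000026166, chr1:83116766-83119167, plus strand) encodes the chemokine that draws CCR6-positive cells to the follicle epithelium. Its level was 2.13, 2.68, 1.63, 0.384 and 3.86 CPM in WT1 to WT5, and 0.338, 1.10, 0.377, 8.65 and 3.56 CPM in KO1 to KO5. It was high in KO4 and WT5, but KO5 came next and KO3 was near the bottom. Inflamed epithelium also makes *Ccl20*, and 8 genes of that state (serum amyloids, *Reg3* genes, *Duox2*, *Nos2* and others) summed to 623.1 to 7377 CPM in WT and 2952 to 18529 CPM in KO libraries, with the highest sum in KO5. That sum was mostly *Reg3b* and *Reg3g* (11691 and 5542 CPM in KO5). *Saa1*, *Saa3* and *Nos2* were also highest in KO5 (278.7, 11.3 and 362.0 CPM). *Duox2* and *Duoxa2* were instead highest in KO3 (1136 and 188.0 CPM). They were at 66.9 and 5.42 CPM in KO4, where *Ccl20* was highest. The part of these genes in the level of *Ccl20* was not tested.

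**Figure D1:**
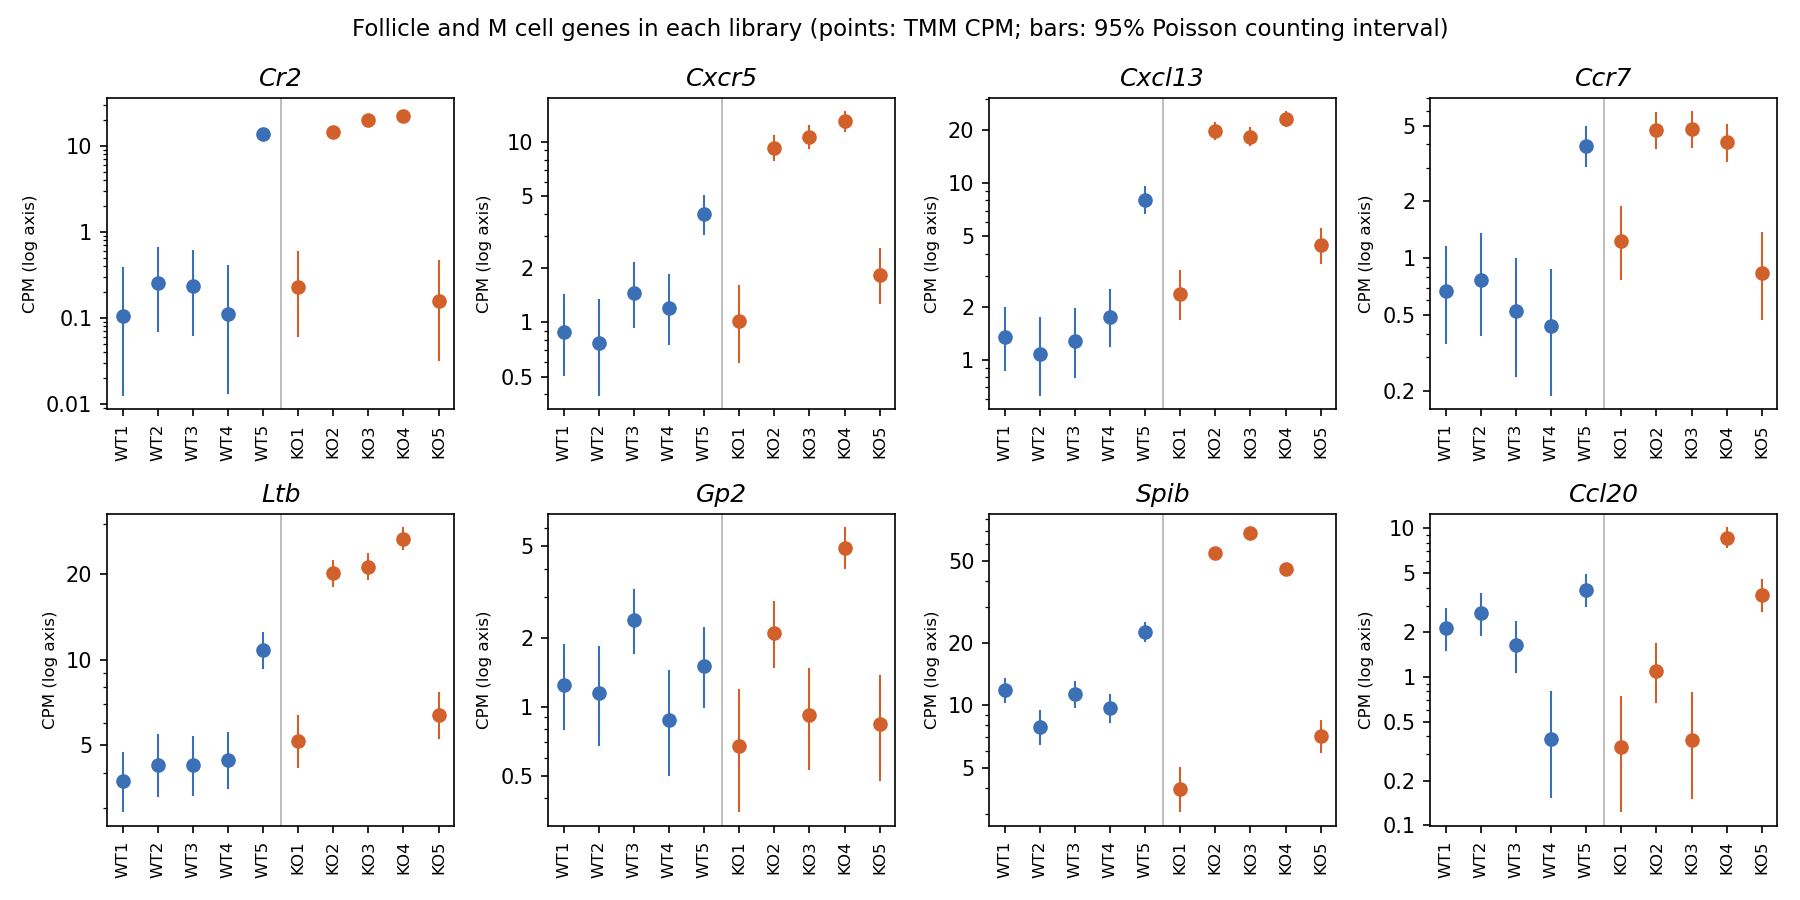
Level of each of the 8 genes in each library, in CPM on a log axis, with WT libraries in blue, KO libraries in orange and bars for the 95% Poisson counting interval. In 6 genes the 4 highest libraries are WT5, KO2, KO3 and KO4, and in *Gp2* and *Ccl20* they are not.

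Per kilobase of exon, levels were compared between genes within each library. *Ltb* was among the 3 highest of the 8 genes in all 10 libraries, at 2.46 to 7.13 CPM per kb in WT and 3.42 to 17.6 CPM per kb in KO libraries. *Spib* was among the 3 highest in all but KO5, and was first in WT1, WT3, WT4, WT5, KO2 and KO3, while *Cxcl13* was first in KO4. *Cr2* was the lowest of the 8 in the 6 libraries where it had 2 to 4 counts, at 0.0128 to 0.0314 CPM per kb, and was at 1.68 to 2.77 CPM per kb in WT5 and KO2 to KO4. *Gp2*, with 12 to 104 counts per library, was at 0.338 to 2.48 CPM per kb, and was the lowest of the 8 in WT5, where *Cr2* had 244 counts. *Ccl20* was the lowest in KO2 and KO3, and *Ccr7* in KO4.

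Other genes of B cells had the same 4 libraries on top. Of the 8 members, 6 had WT5, KO2, KO3 and KO4 as their 4 highest libraries, as did 338 of all 15610 tested genes (2.17%). Of 18 B cell genes, none of them a member, 16 did, with *Blnk*, an adaptor of the B cell receptor, and *Pou2af1*, which plasma cells also make, as exceptions. *Ms4a1* (CD20), a surface protein of B cells, was at 15.5 CPM in WT5, at 33.0, 29.6 and 31.8 CPM in KO2 to KO4, and at 0.363 to 0.891 CPM in the other 6 libraries. *Fcer2a* (CD23), a gene of resting follicular B cells, had 183 to 441 counts in the 4 libraries and 0 to 4 in the other 6. Summed over the 18 genes, the level was 226.2 CPM in WT5, 374.6, 401.7 and 497.1 CPM in KO2 to KO4, and 61.7 to 102.1 CPM in the others.

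The stroma and vessels of lymphoid tissue were seen in part in the same libraries. Of 14 genes of follicle stroma and lymphoid homing, 9 had these 4 libraries on top. *Glycam1*, a ligand of the homing receptor L-selectin on high endothelial vessels, was at 3.25 CPM in WT5 and at 2.04, 1.18 and 2.90 CPM in KO2 to KO4. It had 0 counts in each of the other 6 libraries, which allows up to 0.191 CPM in the shallowest. *Ccl19*, a chemokine of T cell zones, was at 0.952 CPM in WT5 and 0.889, 1.29 and 3.57 CPM in KO2 to KO4, and KO5, where *Cr2* had 3 counts, held 0.734 CPM. It counts among the 9 by 17 counts in KO2 against 14 in KO5, which is within counting error.

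Germinal centre genes were less uniform, and 3 of 10, *Gcsam* and *Mybl1* among them, had the 4 libraries on top, *Mybl1* by 42 counts in WT5 against 36 in WT2, which is within counting error. *Rgs13*, which tuft cells also make, was at 28.9 and 38.7 CPM in KO2 and KO3 but at 10.2 CPM in KO4 and 6.44 CPM in WT5, within the range of WT1 to WT4 (6.18 to 10.5 CPM).

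None of 10 T cell genes, 8 plasma cell genes, 7 dendritic cell genes or 10 further genes of M cells and follicle epithelium had these 4 libraries on top. The summed T cell level was 50.9 to 80.5 CPM in WT and 46.0 to 70.7 CPM in KO libraries, and WT5, KO3 and KO4 were among the lower ones. Summed plasma cell levels were lowest in KO4 (1352 CPM), KO3 (3176 CPM), KO2 (3858 CPM) and WT5 (3939 CPM), where the B cell genes were highest. That sum was mostly *Igha* and *Jchain*, and *Derl3* and *Tnfrsf17* had the same 4 lowest libraries. *Prdm1* did not follow it, being highest in KO2 (26.0 CPM), nor did *Sdc1*, at 89.8 to 121.2 CPM in WT and 184.5 to 244.5 CPM in KO libraries. Of 13 genes of lymphotoxin and non-canonical NF-kB, 1 (*Lta*, the soluble partner of *Ltb*) had the 4 libraries on top, by 10 counts in WT5 against 9 in WT4, which is within counting error.

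The ileal and smooth muscle sums in these libraries are given beside the levels of *Cr2*, and their part in them was not tested. KO1 and KO5, with 4 and 3 counts of *Cr2*, had ileal sums of 4169 and 9145 CPM, within the 3347 to 10607 CPM of KO2 to KO4. Their smooth muscle sums were 3629 and 4339 CPM, against 3265, 5472 and 9957 CPM in KO2 to KO4. Among WT libraries, WT5 had the highest ileal sum (264.9 CPM) and the highest smooth muscle sum (2179 CPM), both below every KO library.

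**Figure D2:**
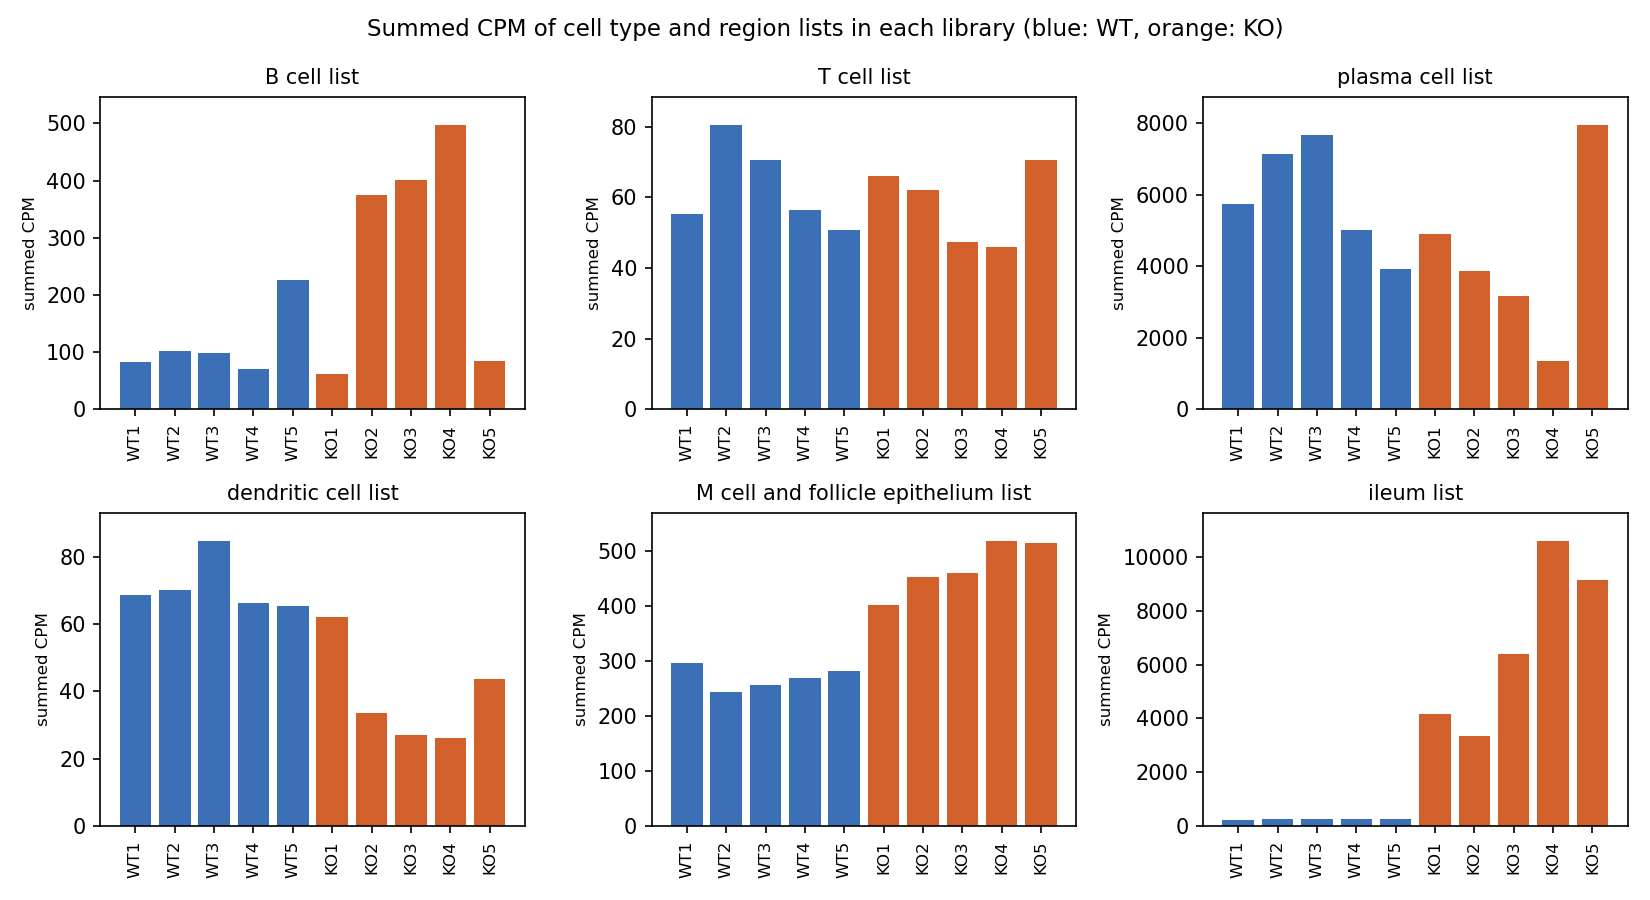
Summed CPM of 6 gene lists in each library (bars from 0, WT in blue, KO in orange). The B cell sum is high in WT5 and KO2 to KO4, and the T cell sum is 50.9 to 80.5 CPM in WT and 46.0 to 70.7 CPM in KO libraries. Plasma cell sums (mostly *Igha* and *Jchain*) are lowest in the libraries with high B cell sums. Dendritic cell sums are 65.5 to 84.8 CPM in WT and 26.1 to 62.1 CPM in KO libraries, and the M cell list and the ileum list separate the groups.

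Relative to *Cr2*, the libraries that held follicle genes differed in the makeup of their counts. Per 100 counts of *Cr2*, *Fcer2a* had 75.0 counts in WT5 and 75.3, 73.0 and 93.2 in KO2 to KO4. *Cxcr5* had 29.1 in WT5 and 63.8, 54.1 and 57.9 in KO2 to KO4, so that *Fcer2a* kept its ratio to *Cr2* more closely than *Cxcr5* did. *Cxcl13* had 59.0 in WT5 and 135.1, 93.2 and 102.7 in KO2 to KO4. *Ccr7* went the other way in part, with 28.7 in WT5 and 32.6, 24.3 and 18.2 in KO2 to KO4. A single WT library stands on one side of these ratios, and they have no replicate check.

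Of all tested genes, the 5 whose levels followed *Cr2* most closely over the 10 libraries included *Ms4a1*, *Chst3*, *Blk* and *Siglecg*. Their root mean square differences of centred log2 CPM from *Cr2* were 0.51, 0.78, 0.94 and 1.23. *Ms4a1*, *Blk* and *Siglecg* are genes of B cells, and *Chst3* encodes a chondroitin sulfotransferase. *Chst3* was at 11.2 CPM in WT5, 17.7 to 18.4 CPM in KO2 to KO4 and 0.446 to 0.726 CPM in the other 6. Those closest to *Gp2* were *Spsb4*, *Sat2*, *Flrt1*, *Rims3* and *Mamld1*, at 0.35, 0.39, 0.39, 0.42 and 0.42, and none of them is on a list of M cell or pancreatic genes used here.

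KO was then compared with WT, as a description of this contrast. By edgeR's quasi-likelihood test over all genes, 3 of the 7 members that passed the filter on low counts were higher in KO at an adjusted p under 0.05. None was lower in edgeR or DESeq2, nor had any an unadjusted p under 0.05 in that direction. Of all tested genes, 29.9% were called in either direction and 16.0% as higher, and the members were chosen with this contrast in view. The 3 genes were *Cxcl13* (log2 fold change 2.33, SE 0.73, adjusted p = 0.0352), *Cxcr5* (2.11, SE 0.70, adjusted p = 0.0424) and *Ltb* (1.54, SE 0.48, adjusted p = 0.0343). *Spib* had 1.50 (SE 0.67, 95% interval 0.04 to 2.96, adjusted p = 0.108 in edgeR) and *Ccr7* one of 1.31 (SE 0.69, interval -0.19 to 2.82, adjusted p = 0.165). *Gp2* had 0.41 (SE 0.54, interval -0.78 to 1.60, adjusted p = 0.587 in edgeR) and *Ccl20* 0.41 (SE 0.83, interval -1.41 to 2.22, adjusted p = 0.734). With the smooth muscle score as covariate, the log2 fold changes of *Cxcl13*, *Cxcr5* and *Ltb* were 0.58, 0.17 and 0.14 and none was called by edgeR or had an unadjusted p under 0.05, but this fit called only 12 of all 15610 genes, against 4660 without the covariate. With robust dispersion *Cxcr5* was not called (adjusted p = 0.0517 in edgeR). The intervals of *Spib*, *Ccr7*, *Gp2* and *Ccl20* leave room for changes of over 1 on the log2 scale.

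*Cr2* did not pass the filter, since fewer than 5 libraries had enough counts. Its mean log2 CPM was higher in KO by 2.57 (exact permutation test over 252 splits, 2-sided p = 0.127, smallest possible 0.00794). Its log2 fold change was 1.97 in edgeR without the filter (adjusted p = 0.339, with 16.7% of all genes called) and 1.98 in DESeq2 (adjusted p = 0.367, with 28.2% called). The gene that divided the libraries most was thus not called between the genotypes by any of these tests.

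In none of the 8 genes did the 5 KO libraries separate from the 5 WT libraries, whereas 21.1% of all tested genes had groups that did not overlap. In 6 genes 3 of 5 KO libraries, KO2 to KO4, were above all WT libraries, and in *Gp2* and *Ccl20* 1 was, KO4. Without WT5 the log2 fold changes of *Cxcl13*, *Cxcr5* and *Ltb* were 3.30, 2.73 and 1.93, and *Ccr7* was called as well (2.38, adjusted p = 0.0144 in edgeR). Without any single one of WT1 to WT4 or KO2 to KO4, none of the members was called by edgeR, although 3 had an unadjusted p under 0.05 each time. In those fits the calls over all genes went from 4660 to between 3207 and 4301, and without WT5 to 4042. Without KO1, *Spib* joined the 3 genes (1.79, adjusted p = 0.0246 in edgeR).

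**Figure D3:**
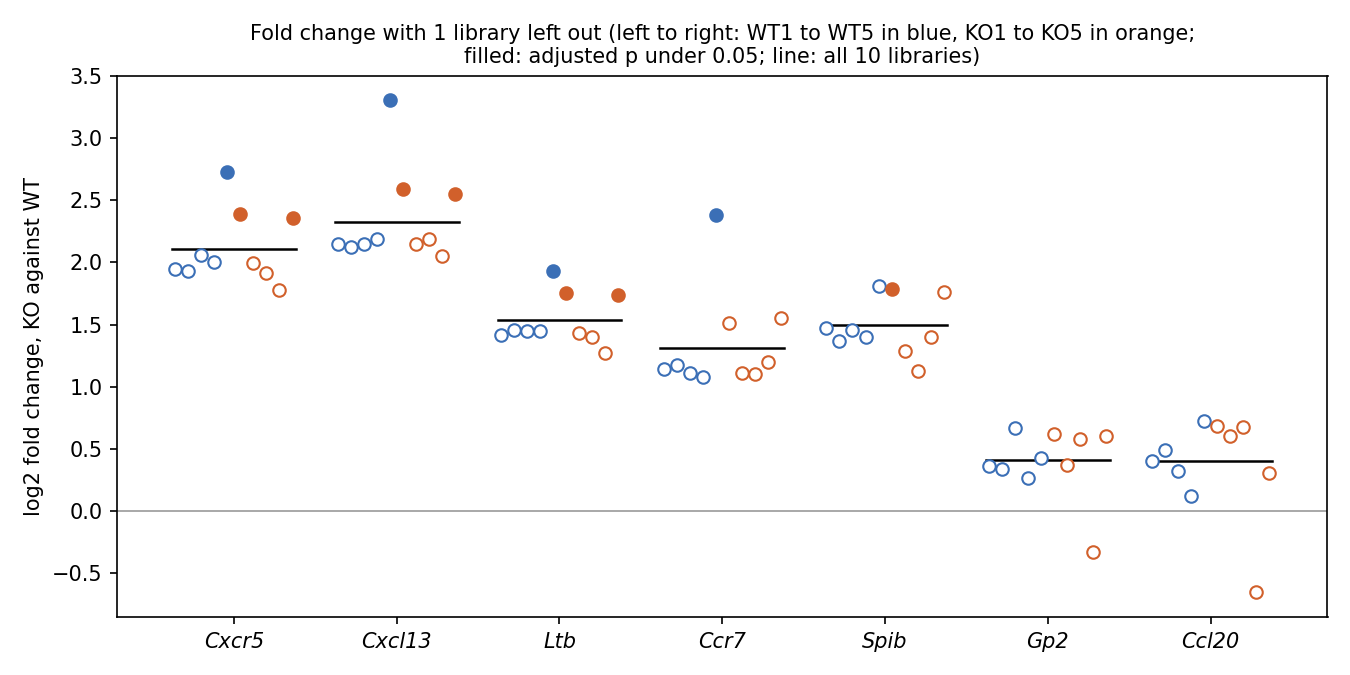
Log2 fold change of KO against WT for the 7 tested members with 1 library left out at a time (WT libraries in blue, KO libraries in orange, filled where the edgeR adjusted p is under 0.05, black line for all 10 libraries). *Cxcr5*, *Cxcl13* and *Ltb* are called only without WT5, KO1 or KO5, and *Gp2* and *Ccl20* turn negative without KO4.

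Genes around the members were compared in the same way. Over 5 lists of B cells, germinal centres, follicle stroma and homing, lymphotoxin signalling and T cells, 65 genes without the members, 55 were tested. Of these, 7 rose (12.7%) and 3 fell (5.45%) of the 55, against 16.0% and 13.9% of all tested genes. Their median log2 fold change was 0.67, against 0.03 over all tested genes. Whether the share that rose was above or below that of all genes depended on the fit. It was 15 of 64 with DESeq2 (23.4%, all genes 14.9%), 19 of 55 without WT5 (34.5%, all genes 13.4%), 21 of 61 without KO1 (34.4%, all genes 18.5%) and 14 of 61 without KO5 (23.0%, all genes 16.2%). It was 12 of 55 with scaling to library size only (21.8%, all genes 23.1%), and with the smooth muscle score as covariate none of these lists' genes was called by edgeR in either direction (5 higher and 1 lower at an unadjusted p under 0.05), in a fit that called 12 of all 15610 genes. Of 15 tested B cell genes 1 rose, *Tnfrsf13c*, the receptor for the survival factor BAFF (2.67, SE 0.89, adjusted p = 0.0428 in edgeR, and called in 3 of 10 fits with 1 library left out), while the median of the list was 1.39. *Cd79a* and *Blnk*, of the B cell receptor and the most abundant of the list, had log2 fold changes of 1.66 and -0.16 (adjusted p = 0.0517 and 0.663 in edgeR). Beside *Cxcl13*, the chemokine gene *Ccl21a* rose (1.42, adjusted p = 0.00585 in edgeR), with the reservation that near-identical copies of it exist in the mouse genome and may share its reads. *Bst1*, made by stroma and also by Paneth cells of the epithelium, fell (-1.78, adjusted p = 0.00694 in edgeR).

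In lymphotoxin signalling, 3 of 12 tested genes rose (25.0%, all genes 16.0%), 2 fell (16.7%, all genes 13.9%), and the median was -0.01. The subunits of the non-canonical NF-kB dimer, *Relb* (0.88, adjusted p = 0.00434) and *Nfkb2* (0.60, adjusted p = 0.00166 in edgeR), rose, and all 5 KO libraries were above all WT libraries for both, as groups did not overlap in 21.1% of all tested genes. *Relb* was at 49.8 to 77.5 CPM in WT and 88.7 to 155.6 CPM in KO libraries, and KO1 and KO5, at 101.6 and 139.3 CPM, were as high as the others. *Tnf* rose (1.44, adjusted p = 0.0410 in edgeR), while the receptor *Ltbr* (-0.29, adjusted p = 0.0357) and the kinase gene *Chuk* (-0.72, adjusted p = 0.00190) fell. *Tnf* was at 4.95 and 4.87 CPM in KO4 and KO5 and at 1.13 to 1.36 CPM in KO1 to KO3, against 0.816 to 1.23 CPM in WT libraries. With 1 library left out at a time *Tnf* was called in 3 of 10 fits (not without KO4, at 1.10, or KO5, at 1.12, or any WT library) and *Ltbr* in 4 of 10, and *Relb*, *Nfkb2* and *Chuk* in all 10. *Tnfrsf1a* and *Tnfrsf14*, receptors of the same family, had -0.22 and -0.33 (adjusted p = 0.112 and 0.258 in edgeR). The levels of *Relb* thus did not overlap between the KO and WT groups, while those of *Cr2* and *Cxcl13* did.

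Of 9 tested genes of M cells and follicle epithelium other than the members, 4 rose, where 16.0% of all tested genes did. With the smooth muscle score as covariate none of the 9 was called by edgeR (3 higher at an unadjusted p under 0.05), in a fit that called 12 of all 15610 genes. None fell in edgeR or DESeq2, and none had an unadjusted p under 0.05 in that direction. They were *Marcksl1* (2.02, adjusted p = 8.44e-04), *Pglyrp1* (1.65, adjusted p = 0.00117), *Tnfrsf11b*, a decoy receptor for RANKL (0.85, adjusted p = 0.0203), and *Anxa5* (0.70, adjusted p = 0.0126), all by edgeR. The most abundant ones that were not called were *Tnfrsf11a*, the receptor for RANKL, the signal that drives M cell formation (0.08, adjusted p = 0.702), and *Ctsh* (0.25, adjusted p = 0.111 in edgeR). *Sox8*, a transcription factor of M cell maturation, was below the filter, with 1 to 9 counts in WT and 9 to 42 in KO libraries. The 4 genes that rose are not particular to M cells, and *Gp2* was not called. Their list summed to 242.2 to 295.4 CPM in WT and 401.7 to 517.5 CPM in KO libraries, and the smooth muscle and ileal sums given above also separated the groups. Of 10 T cell genes *Icos*, a costimulatory receptor of T cells that help B cells, rose (0.90, adjusted p = 0.00745 in edgeR), and the median of the list was 0.09. Of 7 tested germinal centre genes 1 rose, *S1pr2*, a receptor that keeps B cells in the germinal centre but is also made by other cells (0.84, adjusted p = 0.00740 in edgeR), with a median of 0.84. Of 7 dendritic cell genes 2 fell, the integrin gene *Itgax* (CD11c, -1.12, adjusted p = 0.0160) and the lectin gene *Cd209a* (-1.38, adjusted p = 0.0202 in edgeR), where 13.9% of all tested genes fell, and the median was -0.60.

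**Figure D4:**
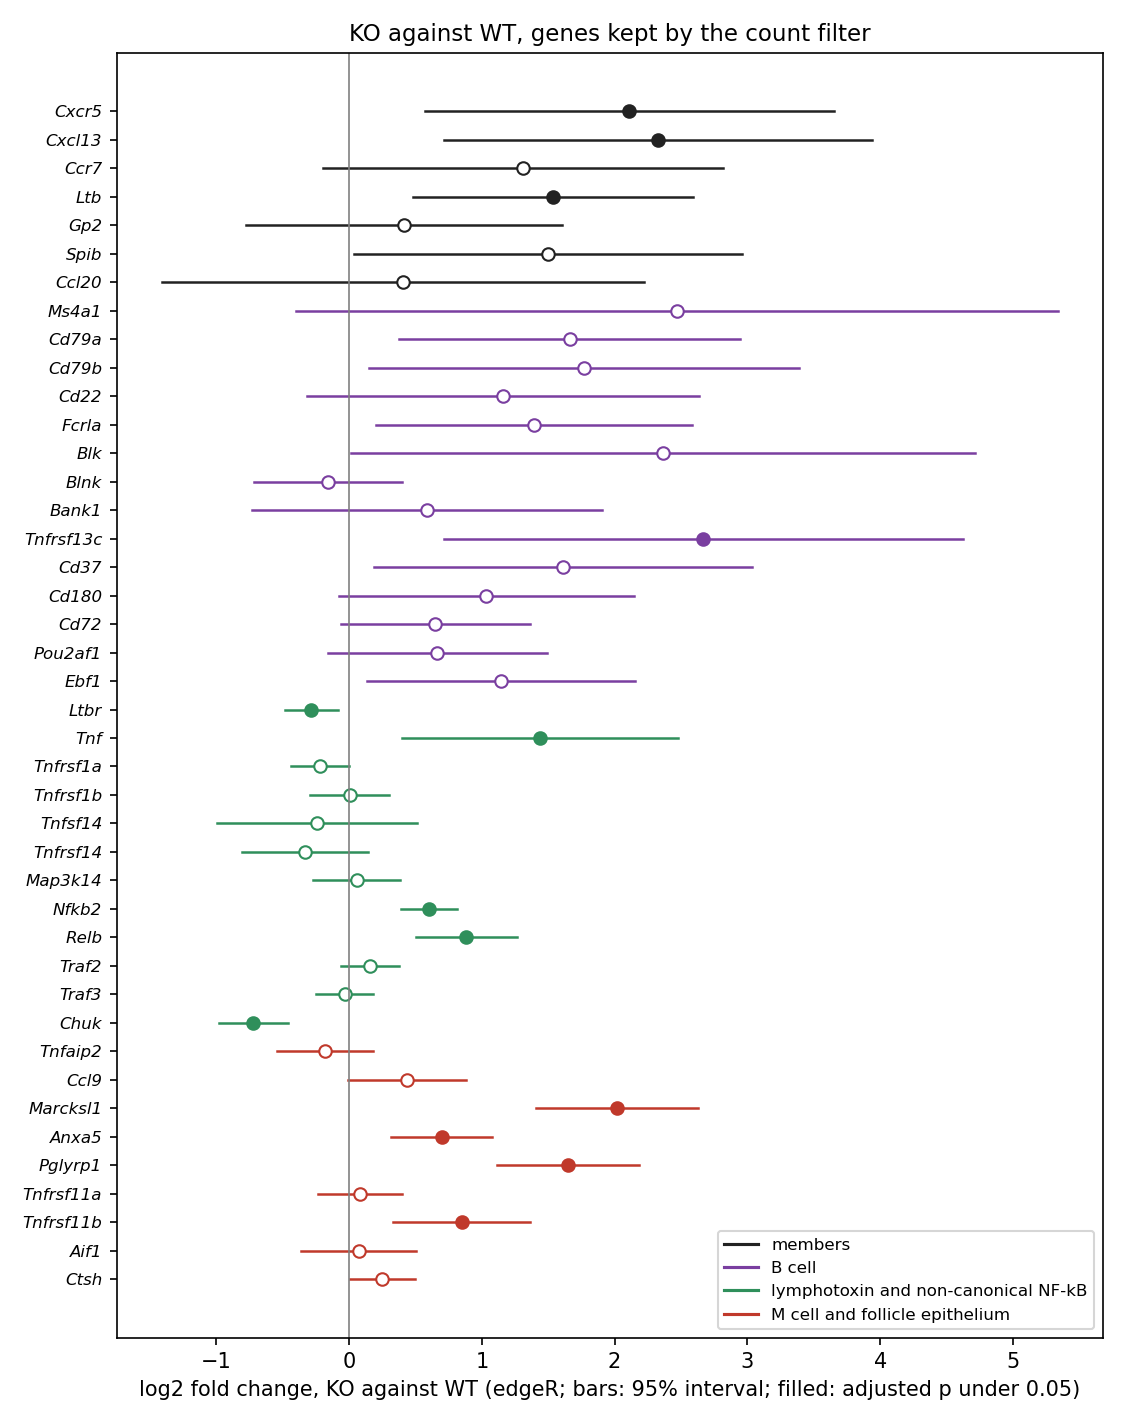
Log2 fold change of KO against WT (points) with the 95% interval (lines) from edgeR for the tested members and for 14 B cell genes and the lymphotoxin and M cell genes, filled where the adjusted p is under 0.05. The B cell genes other than *Blnk* lie above 0, some with intervals that leave out 0 although, after adjustment over all genes, only *Tnfrsf13c* among them is called, and *Nfkb2*, *Relb* and *Chuk* have narrow intervals.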

How the data were processed

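RNA-seq counts of proximal small intestine from 5 WT and 5 KO mice, grouped by the titles of the samples, were analysed, with 1 library per mouse. The authors deposited whole-number counts of reads per Ensembl gene ID without normalization. The kit named in the labels is SMARTER mRNA-Seq, and the submitters' processing notes name GRCm38/mm10, FastQC 0.11.9, Trimmomatic, HISAT2 2.0.4, SAMtools 1.3.1 and DESeq2 1.14.1. For the read counter, the annotation and strand, the entry is: not given in the sources used here. If strand was ignored, overlapping genes share counts.

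Symbols and positions came from GENCODE M21 (GRCm38), which named 34490 of 35275 IDs. R 4.3.3 was used with edgeR 4.0.16, DESeq2 1.42.0 and limma 3.58.1. After TMM normalization, KO was compared with WT by the quasi-likelihood test of edgeR on the 15610 genes that filterByExpr kept (minimum count 10, minimum total 15), with p-values adjusted by Benjamini-Hochberg over these genes and a threshold of 0.05. The SE is the log2 fold change divided by the root of F. *Cr2*, below the filter, was compared by an exact permutation test on the mean log2 CPM (prior count 2). Counting intervals are exact Poisson intervals at 95%, and 0 counts allow up to 3. Intervals and limits cover counting error only. The steps were tested on simulated data.

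The 8 genes, the 14 lists and the named genes were chosen with earlier results of these data known. Of the lists, called genes (up to 5 by size) and up to 2 abundant genes not called could be named, and lists of other tissues were given by sums and ranges. *Ms4a1*, *Fcer2a*, *Pou2af1*, *Gcsam*, *Mybl1*, *Rgs13*, *Glycam1*, *Ccl19*, *Lta*, *Ctrb1*, *Cpa1*, *Prdm1*, *Mzb1*, *Derl3*, *Tnfrsf17* and *Sox8* were named after their values were seen, as was the set of 4 libraries in which genes were counted. Likeness is the smallest root mean square difference of centred log2 CPM. As alternatives, DESeq2, RLE normalization, library size alone as the scale, robust dispersion, a filter at a mean count of 10, no filter, a block for the replicate number, a covariate for smooth muscle and leaving out each library were tried. Protein sequences were not used here, and 2 genes of the lists are not reported here.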

Additional observations from a re-analysis of the deposited data

Results flagged for a closer look

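WT5 stood far above the other 4 WT libraries by Dixon's criterion for 5 samples in 6 of the 8 genes: *Cr2* (13.7 CPM), *Cxcr5* (3.97 CPM), *Cxcl13* (8.06 CPM), *Ccr7* (3.92 CPM), *Ltb* (10.8 CPM) and *Spib* (22.6 CPM). It also did so in the summed level of the B cell list (226.2 CPM). *Gp2* and *Ccl20* were not flagged in either group. No KO library was flagged for any of the 8 genes, since 3 of 5 KO libraries were high in most of them.

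The summed level of the germinal centre list was low in WT4 (45.8 CPM, other WT libraries 49.5 to 49.8 CPM), and that of the dendritic cell list was high in WT3 (84.8 CPM, other WT libraries 65.5 to 70.2 CPM). In all, 9 of 44 groups were flagged, where chance flags about 1 in 20, and those of WT5 are not independent of each other.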

How the results depend on the processing

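The labels number the replicates, but only 1 of 5 same-numbered pairs deviated together with a correlation over 0.1 (range -0.167 to 0.177), and 1 of 5 WT libraries correlated best with the KO library of its own number, so that the numbers were not taken to pair the mice. With the replicate block, 0 members were called by edgeR (3 at an unadjusted p under 0.05): *Cxcr5* had 1.91 (adjusted p = 0.119), *Cxcl13* 2.43 (0.0780) and *Ltb* 1.42 (0.0895). With the smooth muscle score as covariate, these were 0.17, 0.58 and 0.14, and 0 members (0 at an unadjusted p under 0.05), 0 pathway genes in either direction (5 higher and 1 lower at an unadjusted p under 0.05) and 0 M cell genes (3 higher) were called by edgeR. In that fit 7 genes in all were called as higher and 5 as lower, and the summed level of the smooth muscle list did not overlap between the groups. Robust dispersion left *Cxcr5* at 2.11 with an adjusted p of 0.0517. Pathway genes called higher were 12 with scaling to library size only and 15 with DESeq2, against 7. Scaling to library size only moved the median log2 fold change of all genes up by 0.12 and the share of calls that were higher from 53.5% to 69.4%, and 3 members were called as before. Leaving out 1 library at a time gave 0 to 4 members, 5 to 21 pathway genes called higher and 2 to 5 lower, and 4 to 5 M cell genes. The log2 fold changes then ranged from 1.78 to 2.73 for *Cxcr5*, 2.05 to 3.30 for *Cxcl13*, 1.27 to 1.93 for *Ltb*, 1.08 to 2.38 for *Ccr7*, 1.12 to 1.81 for *Spib*, -0.33 to 0.67 for *Gp2* and -0.65 to 0.73 for *Ccl20*. For *Cr2* the difference ranged from 1.90 to 3.70 (exact p 0.0794 to 0.286). The cause of these changes was not tested. At 2 to 4 counts, levels of *Cr2* in 6 libraries cannot be ordered. Under these alternatives no member and no gene of the M cell list was called lower by edgeR or DESeq2, or had an unadjusted p under 0.05 in that direction.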
